A study of Caenorhabditis elegans with 2 samples.

Results

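The aminoacyl-tRNA synthetase genes of Caenorhabditis elegans were taken as the protein-coding genes of the Ensembl WBcel235 annotation whose symbol is 1 letter followed by ars- and a number from 1 to 3. The rule found 32 of 19985 protein-coding genes, of which 17 encode cytosolic enzymes, 12 mitochondrial enzymes and 3 (gars-1, hars-1 and kars-1) enzymes of both compartments. A gene was called bound where the summit of a reproducible LET-607 peak fell in a window from 1000 bp upstream of its 5′ end to 200 bp downstream. By that definition 6 of the 32 genes were bound (18.75%, exact 95% interval 7.21 to 36.4), against 7.76% of all protein-coding genes. They were lars-1 and mars-1 of the cytosolic enzymes, ears-2 and yars-2 of the mitochondrial enzymes, and kars-1 and hars-1 of those used in both compartments. The interval given for the 32 genes contains the share of all protein-coding genes.

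The study mapped DNA bound by LET-607, a bZIP transcription factor of the CREB3 family, by chromatin immunoprecipitation and sequencing (ChIP-seq) with an antibody against GFP. The worms were hermaphrodites of strain YL529, a transgenic line that stably expresses LET-607 with GFP and FLAG tags at its C-terminus. They were collected as young adults, 67 h after synchronization as starved L1 larvae following bleaching. There was 1 group of 2 biological replicates, both of whole animals, so binding in one tissue cannot be told apart from binding in another. In mammals, factors of this family sit in the endoplasmic reticulum membrane and are cut so that the N-terminal part reaches the nucleus. Whether the C-terminal tag stays with that part in LET-607 was not tested.

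Aminoacyl-tRNA synthetases join each amino acid to its transfer RNA (tRNA), the step that sets the genetic code before the ribosome reads the message. The mitochondrial ribosome needs its own charged tRNAs, supplied either by a separate nuclear gene or by a gene whose product goes to both compartments. Uncharged tRNA is a known signal of amino acid shortage, and synthetase genes are known targets of the amino acid stress factor ATF4 in mammals.

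The files held peak lists with no read counts, so depth is unknown. Relaxed lists, which keep weak peaks, numbered 26463 peaks for replicate 1, 22592 for replicate 2 and 26789 for both replicates pooled. The pooled relaxed list was deposited as peaks and background, so a weak entry may be background. The list thresholded on the irreproducible discovery rate (IDR) held 2372 peaks, which were the 2372 strongest pooled peaks. Their signal, the authors' value with no stated scale, ran from 78.17 to 13030 with a median of 121.8. Ranks count from 1 at the strongest peak of the same list.

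The sequences at the summits of lars-1, hars-1, kars-1 and mars-1 are shown because they are the bound synthetase sites that lie outside exons, with that of aars-1, the gene nearest to the threshold from below. Each runs 5′ to 3′ on the gene's own strand and covers 50 bp to either side of the summit in RefSeq's ce11 sequence. Capitals mark TGACGTGG, which holds the CREB-type core TGACGT, and CACGTG, a palindrome known as an E-box. The lars-1 site is chrIII:4187049-4187149 on the minus strand, the hars-1 site chrIV:10858738-10858838 on the plus strand, and the kars-1 site chrII:7073291-7073391 on the minus strand. The mars-1 site is chrIV:11635726-11635826 and the aars-1 site chrII:11464547-11464647, both on the minus strand.
lars-1: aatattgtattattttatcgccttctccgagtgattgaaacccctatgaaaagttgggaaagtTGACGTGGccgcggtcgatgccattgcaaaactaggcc
hars-1: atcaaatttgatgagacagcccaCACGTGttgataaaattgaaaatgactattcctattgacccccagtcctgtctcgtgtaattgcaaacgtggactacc
kars-1: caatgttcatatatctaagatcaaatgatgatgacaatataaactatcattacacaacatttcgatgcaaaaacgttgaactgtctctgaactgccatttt
mars-1: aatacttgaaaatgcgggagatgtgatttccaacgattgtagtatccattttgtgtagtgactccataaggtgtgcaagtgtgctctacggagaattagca
aars-1: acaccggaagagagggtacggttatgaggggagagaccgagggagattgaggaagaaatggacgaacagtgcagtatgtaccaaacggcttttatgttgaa

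The lars-1 site held TGACGTGG 16 bp from its summit, and it was the only one of the 6 bound synthetase sites with TGACGT within 50 bp on either strand. TGACGT was within 50 bp of 8.22% of all IDR summits and in 3.08% of flanks, stretches as long and centred 300 bp away. The control TGCAGT, made of the letters of TGACGT in another order, was also more frequent at summits, with 6.58% against 3.52% in flanks. TGACGTGG, which contains TGACGT, was at 1.90% of IDR summits and in 0.295% of the flanks. The hars-1 site held CACGTG 24 bp from its summit, a sequence found at 8.31% of IDR summits and in 1.71% of flanks. The kars-1, mars-1, ears-2 and yars-2 sites held none of the sequences searched.

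Among whole promoter windows, TGACGT stood in those of 6 of the 32 synthetase genes (18.75%), namely aars-1, kars-1, lars-1, nars-1, sars-2 and tars-1. The share was 32.6% over the windows of all protein-coding genes and 38.0% over those of the bound genes. GACGTG, which overlaps TGACGTGG, stood in 9 synthetase windows (28.12%), against 22.45% of all windows. CACGTG stood in 4 (12.5%), against 18.35%. TGATGNAAN, the letters of the element bound in mammals by ATF4 with C/EBP proteins, stood in 8, against 28.1% of all windows, and at none of the 6 bound summits. The control TGCAGT stood in 9 (28.12%), against 36.0% of all windows and 38.8% of those of bound genes. TGACGT and its control were thus both less frequent in synthetase windows than in all windows, and each match is a description of the letters and not a binding site.

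**Figure D1:**
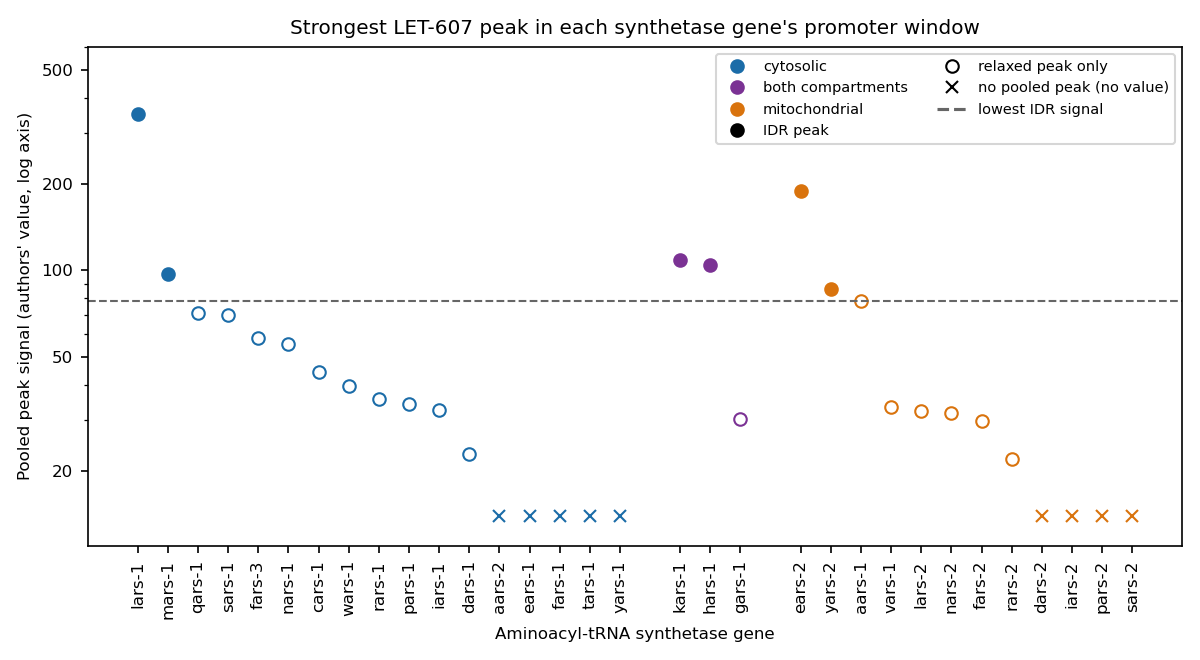
Signal of the strongest pooled LET-607 peak in the promoter window of each of the 32 synthetase genes, as the authors' value on a log axis, with genes grouped by compartment on the horizontal axis. Filled points are IDR peaks, open points are relaxed peaks, crosses mark genes with no pooled peak and carry no value, and the dashed line is the lowest IDR signal of 78.17; 6 genes lie above the line and aars-1 touches it at 78.05.

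Of the cytosolic enzymes, leucyl-tRNA synthetase gave the strongest peak. The lars-1 peak (WBGene00003073, ce11 III 4186968 to 4187216) had a pooled signal of 349.4 at rank 197, a replicate 1 signal of 188.7 at rank 205 and a replicate 2 signal of 158.2 at rank 203. Its summit lay 298 bp upstream of lars-1 in intergenic sequence, and the replicates' summits lay 3 and 0 bp from it. Both replicates thus placed it at nearly the same rank and base. It reached no other gene's window, and by signal it took place 177 among the 1550 bound genes.

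The gene mars-1 encodes methionyl-tRNA synthetase, which charges the tRNA of the first residue of each protein as well as that of internal methionines. Its peak (IV 11635564 to 11635987) had a pooled signal of 97.33 at rank 1716, a replicate 1 signal of 56.14 at rank 1661 and a replicate 2 signal of 38.51 at rank 2406. The summit lay 289 bp upstream of mars-1 and 872 bp upstream of the divergent gene F58B3.6, so it counted for both genes. Each replicate held the peak, though in replicate 2 it lay below the 2372 strongest.

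The gene cars-1, which encodes cysteinyl-tRNA synthetase, was not called bound, but had the second strongest reproducible peak near a 5′ end of any synthetase gene. That IDR peak (I 2628217 to 2628477) had a signal of 289.4 at rank 256, with 133.5 at rank 368 in replicate 1 and 157.7 at rank 205 in replicate 2. Its summit lay 242 bp downstream of the 5′ end of the Ensembl gene model, 42 bp beyond the window, in a coding exon. The other annotated 5′ end of cars-1, which is also the one in RefSeq, lies 223 bp downstream of the summit. With every transcript's 5′ end allowed, or with overlap of the peak interval in place of the summit, cars-1 was counted and the bound synthetase genes became 7. No TGACGT or CACGTG lay within 50 bp of this summit.

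The other 14 cytosolic genes had no reproducible peak in their windows. The nearest were qars-1 (glutamine), with a pooled signal of 71.24 at rank 2700, sars-1 (serine) with 69.82 at rank 2786, fars-3 (phenylalanine) with 58.21 at rank 3616 and nars-1 (asparagine) with 55.42 at rank 3869. In the replicates, qars-1 had signals of 51.45 at rank 1915 and 28.22 at rank 4224, and sars-1 had 31.36 at rank 4234 and 35.65 at rank 2742. The replicates therefore ordered these genes differently, with qars-1 ahead in replicate 1 and sars-1 ahead in replicate 2. The genes ears-1, fars-1 and yars-1, for the cytosolic glutamate, phenylalanine and tyrosine enzymes, had no peak in their windows in any list, and aars-2 and tars-1 had one in replicate 1 alone.

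Among the genes whose enzymes serve both compartments, kars-1 and hars-1 were bound and gars-1 was not. The kars-1 gene (lysine) had a peak at II 7073129 to 7073552 with a pooled signal of 109.0 at rank 1424, a replicate 1 signal of 63.89 at rank 1364 and a replicate 2 signal of 47.13 at rank 1708. Both replicates held it within their 2372 strongest peaks. Its summit lay 926 bp upstream of kars-1 and 473 bp upstream of the divergent gene kat-1, which encodes a thiolase of fatty acid oxidation. It was therefore nearer to kat-1, and kars-1 was not counted with a window of 500 bp upstream or with the nearest 5′ end alone.

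The hars-1 gene (histidine) was the bound synthetase gene whose replicates differed most. Its peak at IV 10858576 to 10858999 had a pooled signal of 104.0 at rank 1549, with the summit 169 bp upstream of hars-1 and 292 bp upstream of the divergent gene T11G6.2. In replicate 1 the signal was 82.72 at rank 844. Replicate 2 had a pair of weak peaks there, with signals of 24.26 at rank 5788 and 21.64 at rank 7558, the first of them 454 bp and the other 134 bp upstream of hars-1. The peak was thus strong in replicate 1 and far down the list in replicate 2. For gars-1 (glycine), the pooled peak had a signal of 30.28 at rank 11668.

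Of the mitochondrial enzymes, the glutamate enzyme's gene ears-2 had the strongest peak. The peak (IV 390387 to 390571) had a pooled signal of 188.5 at rank 563, a replicate 1 signal of 106.5 at rank 559 and a replicate 2 signal of 81.11 at rank 663. The replicates placed it at similar ranks. Its summit lay 19 bp upstream of ears-2 and 73 bp upstream of the divergent gene uncp-18, with 91 bp between those genes, so the data do not assign the peak to either of them. The bases within 50 bp of this summit were 60.4% G and C, the highest share of the 6 bound synthetase sites, where the others held 30.7% to 44.55%.

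The yars-2 gene (tyrosine) had the weakest of the 6 peaks, at IV 4712337 to 4712760, with a pooled signal of 86.12 at rank 2068, a replicate 1 signal of 42.69 at rank 2579 and a replicate 2 signal of 38.46 at rank 2411. Neither replicate alone held it among its 2372 strongest peaks, although both held it at like ranks. Its summit lay 75 bp downstream of the 5′ end, in a noncoding part of a yars-2 exon, and reached no other gene. The alanine gene aars-1 had a pooled signal of 78.05 at rank 2377, which is 5 ranks below the last IDR peak. Its replicate 1 signal was 55.47 at rank 1684 and its replicate 2 signal 25.32 at rank 5289, with the pooled summit 100 bp upstream. Among the synthetase windows, yars-2 had the weakest peak inside the threshold and aars-1 the strongest peak outside it. In replicate 1 the order of those genes was the opposite.

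**Figure D2:**
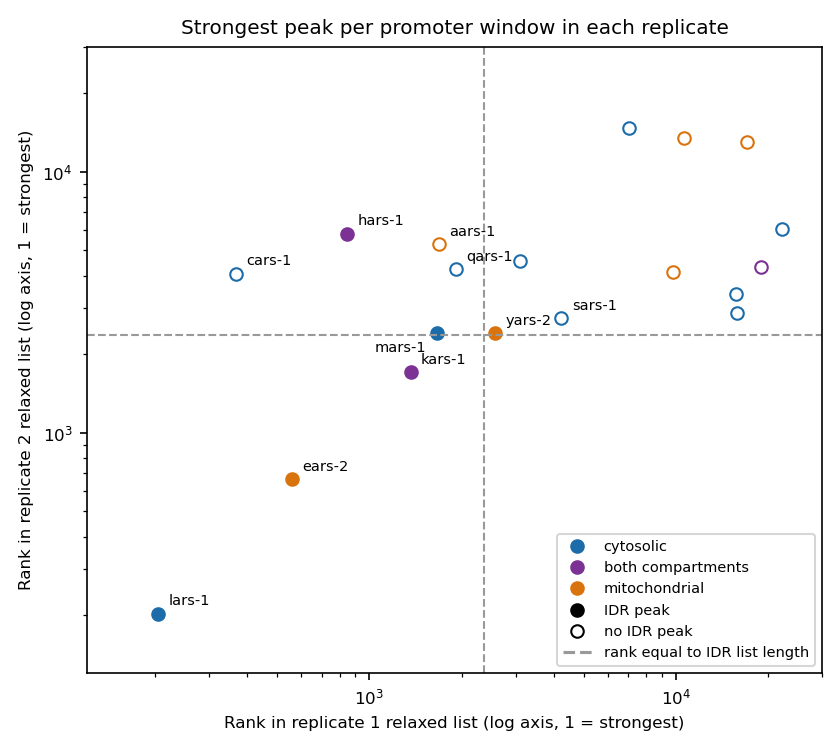
Rank of the strongest peak in the promoter window in the relaxed list of replicate 1 (horizontal) and replicate 2 (vertical), both on log axes with 1 the strongest, for the 19 synthetase genes with a peak in both lists. Filled points are bound genes, colours give the compartment and dashed lines stand at rank 2372; lars-1, ears-2 and kars-1 lie inside both lines, while hars-1, mars-1, aars-1, cars-1 and qars-1 lie inside that of replicate 1 alone. The peaks of a gene in the replicates need not overlap. For cars-1 the replicate 2 value is that of a weaker peak, since the summit of its strong peak fell beyond the window there.

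With so few genes, binding at cytosolic and mitochondrial enzymes was compared by counts alone, and a difference was not tested. Of the cytosolic genes, 2 of 17 were bound (11.8%, exact 95% interval 1.46 to 36.4), and of the mitochondrial genes 2 of 12 (16.7%, 2.09 to 48.4), and the intervals overlapped over most of their length. Both intervals also contained the 7.76% of all protein-coding genes. Of the genes serving both compartments, 2 of 3 were bound (66.7%, 9.43 to 99.2). These intervals cover counting error alone, and genes are not replicates of a condition. The order of the compartments turned with that group, since counting it with the cytosolic enzymes gave 4 of 20 and counting it with the mitochondrial enzymes gave 4 of 15. The cytosolic gene tars-1 (threonine) has a second protein in RefSeq whose compartment is not named, and with tars-1 counted under both compartments the counts were 2 of 16 cytosolic genes and 2 of 4 serving both.

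For 11 amino acids the rule found both a cytosolic and a mitochondrial gene. In no pair were both genes bound. With 1 cytosolic and 2 mitochondrial genes bound in these pairs, and 7.76% of all protein-coding genes bound, hardly any such pair could be expected. The cytosolic gene alone was bound for leucine, the mitochondrial gene alone for glutamate and tyrosine, and neither for the other 8. The cytosolic gene had the stronger pooled peak in 8 pairs, counting a gene with no peak as the weaker, and the mitochondrial gene in those of alanine, glutamate and tyrosine. For aspartate, isoleucine, proline and arginine the leading cytosolic peak had a deposited −log10 q-value of 0.071 to 0.419, too low to tell it from background. In the other pairs led by the cytosolic gene it was 1.64 to 3.65. For the leading mitochondrial peaks it was 2.98 to 3.65. For phenylalanine the stronger of fars-1 and fars-3 was taken. For aspartate, isoleucine, proline and serine the mitochondrial gene had no pooled peak, and the cytosolic peak of aspartate was itself at rank 19320. In all 3 pairs led by the mitochondrial gene, the cytosolic gene had no pooled peak. In the leucine pair the gap was wide, with lars-1 at rank 197 and lars-2 at rank 10317. In the tyrosine pair, yars-2 was at rank 2068 and yars-1 had no peak in its window.

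Weak peaks were found at most synthetase genes. A relaxed pooled summit lay in the window of 23 of 32 genes (71.9%, 53.25 to 86.25), against 36.4% of all protein-coding genes, and in 12 of 17 cytosolic (70.6%) and 8 of 12 mitochondrial genes (66.7%). In replicate 1 there were 26 genes (81.25%), against 35.8%, and in replicate 2 there were 20 (62.5%), against 32.8%. Both replicates held a peak in the same window for 19 genes (59.4%, 40.6 to 76.3), against 23.0%. That count did not require the peaks to overlap. For gars-1 the summit lay 632 bp upstream in replicate 1 and 96 bp downstream in replicate 2. For lars-2 it lay 77 bp downstream in replicate 1 and 782 bp upstream in replicate 2. The synthetase shares were above the background in each list, whereas cytosolic and mitochondrial enzymes had similar shares. Of the 26 unbound genes, 17 had a pooled peak, with signals from 22.04 to 78.05 and a median of 34.26. The deposited −log10 q-value of that peak was 1.64 to 2.98 for aars-1, qars-1, sars-1, fars-3 and nars-1. For the rest of the 17 it was 0.058 (rars-2) to 0.828 (cars-1), too low to tell these entries from background. The 9 remaining unbound genes had no pooled peak, and 5 of these (ears-1, fars-1, iars-2, sars-2 and yars-1) had no peak in either replicate.

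**Figure D3:**
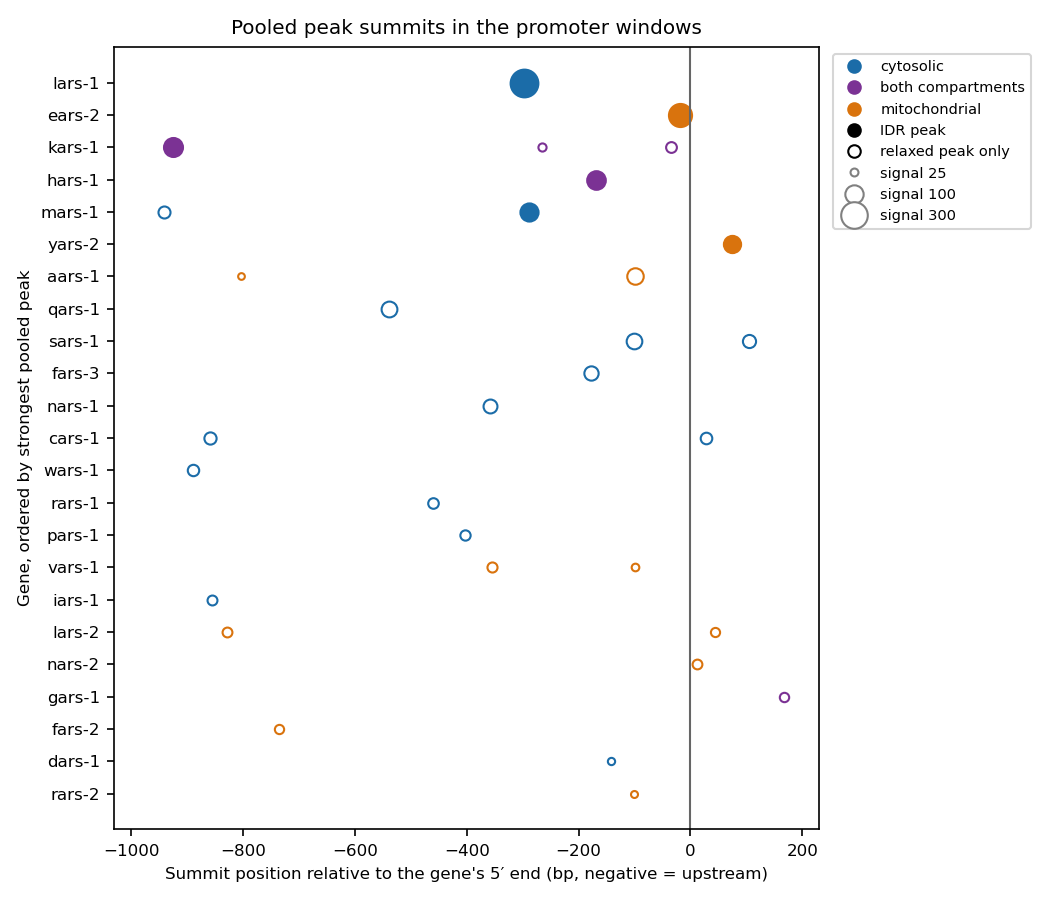
Position of every pooled peak summit in the promoter windows of the 23 synthetase genes with one, in bp from the gene's 5′ end with negative values upstream, and genes ordered by their strongest peak. Point diameter grows with the log of the authors' signal, and filled points are IDR peaks. The bound summits of ears-2 and yars-2 lie within 100 bp of the 5′ end and that of kars-1 lies 926 bp upstream.

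The number of bound synthetase genes depended on which replicate was used. With the 2372 strongest peaks of replicate 2 alone, ears-2, kars-1 and lars-1 were bound (3 of 32, background 7.44%). With those of replicate 1 alone, 8 genes were bound against a background of 7.79%, namely aars-1, cars-1, ears-2, hars-1, kars-1, lars-1, mars-1 and qars-1. Of the 6 bound genes, ears-2, kars-1 and lars-1 had peaks among the 2372 strongest of both replicates. The cars-1 peak, at ranks 368 and 205, was among them too, but its summit lay in the window in replicate 1 and beyond it in replicate 2. Among the 1186 strongest peaks of the IDR list, lars-1 and ears-2 were the only synthetase genes, 2 of 32 against a background of 4.25%.

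Of the 6 bound summits, 4 also lay in another gene's window. The upstream neighbour is transcribed away from the synthetase gene for 18 members, of which 5 were bound, and lies on the same strand for 14, of which yars-2 was bound. Over all protein-coding genes, 10.7% of those with a divergent neighbour and 5.29% of those with one on the same strand were bound. The same-strand neighbour lay within 250 bp for 9 members, of which yars-2 was bound. These were the mitochondrial dars-2, lars-2, nars-2, rars-2, vars-1 and yars-2, the cytosolic rars-1 and yars-1, and gars-1. More of the 9 were thus mitochondrial than cytosolic. The bound share of all genes with so near a neighbour was not computed. Whether the window of such a gene holds its promoter was not tested. Where a summit had to lie in reach of no other gene, lars-1 and yars-2 stayed, 2 of 32 against a background of 4.19%. Such shared promoters leave unresolved which gene a peak belongs to, and the peaks at ears-2, kars-1, hars-1 and mars-1 are of that kind. None of the 6 summits was close to a tRNA gene, the nearest of which lay 67784 to 372777 bp away. Of the 2349 IDR summits on nuclear chromosomes, 212 lay within 100 bp of a tRNA gene. At that share, hardly any of 6 summits could be expected there. By chromosome, 4 of 8 members on IV were bound (7.47% of all genes there), 1 of 6 on III (12.2%), 1 of 5 on II (6.52%), 0 of 9 on I (9.14%) and 0 of 4 on V (5.17%). The cars-1 peak, just beyond the window, is on I.

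The rest of the translation machinery was set beside the synthetases and beside the 7.76% of all protein-coding genes that were bound. Genes of the cytosolic ribosome were bound in 45 of 82 cases (54.9%, 43.5 to 65.9), a share whose interval lies above that of the synthetases. Genes of the mitochondrial ribosome were bound in 10 of 70 (14.3%, 7.07 to 24.7), an interval that overlaps that of the mitochondrial synthetases. It also contains the share of all protein-coding genes. Of 25 genes of tRNA delivery, processing and modification, 8 were bound (32.0%, 14.95 to 53.5). Of these, 6 encode cytosolic elongation factors. The strongest peak was that of eef-2, the factor that moves the ribosome along, with a signal of 692.1 at rank 83, followed by eef-1G with 402.3 at rank 160. Both lay above lars-1. Next came eef-1A.1, which brings charged tRNA to the ribosome, with 234.1 at rank 387, below lars-1. Of 10 genes of amino acid sensing and stress, pek-1, a kinase that phosphorylates eIF2 alpha in endoplasmic reticulum stress, had a signal of 265.4, and atf-4, the worm counterpart of ATF4, had 127.2.

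**Figure D4:**
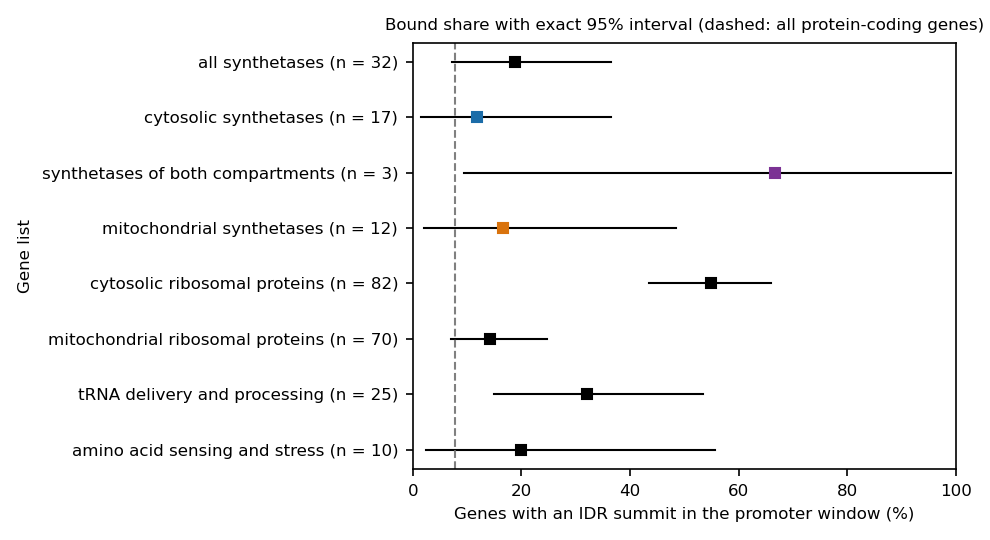
Share of genes with an IDR summit in the promoter window, in percent, for the synthetases, their compartments and 4 related lists, with exact 95% intervals as bars and the share of all protein-coding genes (7.76%) as the dashed line. Cytosolic ribosomal genes reach 54.9%, while the intervals of cytosolic and mitochondrial synthetases overlap each other and the dashed line.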

How the data were processed

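LET-607 ChIP-seq was measured in 2 biological replicates of 1 group, grouped by the labels' replicate numbers. Per the deposited file descriptions, the authors called relaxed peaks for each replicate and for the pool against 1 control file, not analysed here, and thresholded the IDR list on reproducibility. Which aligner and caller were used is not given in the sources used here. Peak signal as deposited, the authors' own value, has no stated scale and ranked peaks within a list only. The deposited −log10 q-value had the same value, 3.65, in 2252 IDR peaks and ranked nothing. The ce10 lists were not used, since the annotation is on ce11.

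Gene 5′ ends came from Ensembl release 115 and sequences from RefSeq, both WBcel235 (ce11), in 1-based coordinates. Compartments came from RefSeq product names for 14 genes and from a list made from general knowledge for 18. Sequences were searched on both strands. Intervals are exact Clopper-Pearson at 95%, covering counting error only. No test was run, as there was 1 group. The genes, lists and sequences were chosen with earlier results of these data known. All bound synthetase genes were named, with the strongest unbound ones, and cars-1 was chosen for its account after its values were seen. Alternatives were other windows, peak lists and gene rules, and each replicate left out. Window and sequence searches were tested on simulated data and found 200 of 200 planted summits and 100 of 100 planted sequences. Calculations used scipy 1.17.1, numpy 2.4.6, matplotlib 3.10.9 and pandas 2.3.3 in Python 3.11.15.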

Additional observations from a re-analysis of the deposited data

How the results depend on the processing

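The count of 6 bound synthetase genes (7.76% of all genes) was 5 with 500 bp upstream (6.24%) or the nearest 5′ end only (5.95%), 8 with 2000 bp (10.1%, adding fars-2 and rars-1), 7 with peak overlap (8.48%) or any transcript's 5′ end (8.47%), and 6 without summits at tRNA genes (7.49%). It was 2 in the 1186 strongest IDR peaks (4.25%; 1 cytosolic, 1 mitochondrial), 23 in the pooled relaxed list (36.4%; 12 and 8), and 1 of 15 (6.67%, near the 5.01% of all genes) where windows overlapping another gene's were left out (0 of 6 cytosolic, and yars-2 of 8 mitochondrial). Leaving out each replicate gave 3 (without replicate 1) to 8 (without replicate 2) in all, 1 to 4 cytosolic and 1 to 2 mitochondrial. Chosen after seeing the data, a summit in reach of no other gene gave 2 (1 and 1), and a peak among the 2372 strongest of each replicate gave 3 (1 and 1). Enzymes of both compartments made 4 cytosolic or 4 mitochondrial genes when added to either. TGACGT stayed at 1 bound summit with 25 or 100 bp, at 1 of 3 without replicate 1 and at 1 of 8 without replicate 2, and was at 0 in the windows 300 bp to the left and 0 to the right. No paired analysis was possible because there was 1 group. Without read counts the depth is unknown, so a gene without a peak is one where none was called, and weak peaks cannot be given a counting error.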

Other observations

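Groupings of another kind were chosen after the values were seen and are given as counts. By catalytic class, 4 of 15 class I genes (26.7%, exact 95% interval 7.79 to 55.1) and 2 of 17 class II genes (11.8%, 1.46 to 36.4) were bound, against 7.76% of all protein-coding genes, a share inside the class II interval and next to the lower end of that of class I. The intervals overlap. Of 9 genes whose mammalian counterparts sit in the multisynthetase complex, 3 were bound (33.3%, 7.49 to 70.1), namely kars-1, lars-1 and mars-1, against the same 7.76%.

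Reproducible summits also lay inside synthetase genes away from the 5′ end. The yars-1 gene, with no peak in its promoter window, had an IDR summit 8637 bp downstream of its 5′ end in a coding exon, with a signal of 259.5 at rank 324, at rank 317 in replicate 1 and rank 345 in replicate 2. Within fars-1, also without a peak in its window, an IDR summit lay 1865 bp downstream of the 5′ end, in exons of T08B2.13 and T08B2.14. It lies 935 bp upstream of mrpl-23, a mitochondrial ribosomal protein gene, for which it was counted as bound, and it had a signal of 154.5 at rank 805, with rank 1185 in replicate 1 and rank 580 in replicate 2.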
